A study of Mus musculus with 2 samples.

Results

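The genes described here are 10 nDNA-encoded factors. *Tfam*, *Polrmt*, *Tfb2m*, *Tefm*, *Lrpprc*, *Slirp*, *Polg*, *Twnk*, and *Ssbp1* copy, transcribe, or protect mtDNA or its transcripts, and *Ppargc1a* is a nuclear coactivator. They were chosen by symbol, all 10 were found among the 32285 genes of the files, each under 1 identifier, and they were read in 2 droplet-based 3′ scRNA-Seq libraries of whole retina from male C57BL/6J mice aged 7 months. One library was from WT retina (replicate 1) and one from ND6 mutant retina (replicate 1), in which the mtDNA carries a missense change in the ND6 subunit of complex I. In the study the mutation entered the germ line through female embryonic stem cells and was kept by crossing mutant females to WT males. Other samples of the study were not analysed here. With 1 library per genotype, the spread between mice is not known, no test was possible, and every interval below covers counting error only.

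mtDNA is transcribed by a single-subunit RNA polymerase, POLRMT, that needs TFAM to bend the promoter and TFB2M to open it, and TEFM to keep it moving along the template. The transcripts are held and stabilised by LRPPRC with its small RNA-binding partner SLIRP. The DNA is copied by polymerase gamma (POLG) behind the helicase Twinkle (TWNK), with SSBP1 coating the displaced single strand, and PPARGC1A (PGC-1α) is a nuclear coactivator known for raising the transcription of many of these genes together with NRF-1, GABP, and the estrogen-related receptors. The inner segments of photoreceptors are among the most mitochondria-rich compartments of the body.

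The files held 77958836 WT and 80358255 mutant UMIs. Once barcodes had to hold over 400 UMIs, over 200 genes, and no more than 20% mtDNA-encoded UMIs, 12529 WT cells with 54524401 UMIs and 18395 mutant cells with 62949610 UMIs remained, with a median of 1878 and 1416 UMIs per cell. The 2 libraries shared 59 barcodes among the kept cells. Unsupervised clustering without the 10 factors gave rod-like (9502 WT and 13086 mutant cells), cone-like (635 and 1130), RPE-like (338 and 957), bipolar-like (233 and 634), amacrine-like (95 and 367), microglia- or macrophage-like (255 and 136), and Müller-like cells (36 and 92), beside red blood cells and 1 unnamed cluster (1153 and 1378) in which markers of Müller and ganglion cells, *Glul* and *Nefl*, led together. The amacrine-like cluster also raised all 7 ganglion cell markers and had only *Slc32a1* of its own among the leading 10 genes, so its values may belong to both neuron types. All 10 rod markers were counted in every named class, and their summed level is given below where it moved with a result.

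All 10 genes are protein coding, on 9 autosomes of GRCm38. *Tfam* (ENSMUSG00000003923) lies at chr10:71225464-71238280, *Polrmt* (ENSMUSG00000020329) at chr10:79736123-79746581, *Tfb2m* (ENSMUSG00000026492) at chr1:179528055-179546267, *Tefm* (ENSMUSG00000046909) at chr11:80136678-80142175, *Lrpprc* (ENSMUSG00000024120) at chr17:84705247-84790789, *Polg* (ENSMUSG00000039176) at chr7:79446231-79466362, and *Ppargc1a* (ENSMUSG00000029167) at chr5:51454250-51567726, each on the minus strand. *Slirp* (ENSMUSG00000021040) lies at chr12:87443896-87452206, *Twnk* (ENSMUSG00000025209) at chr19:45005663-45012762, and *Ssbp1* (ENSMUSG00000029911) at chr6:40471352-40484700, each on the plus strand. No member shares exon bases with a gene of the same strand. On the opposite strand, *Slirp* shares 2914 exon bases with *Snw1* and 122 with *Alkbh1*, *Polg* shares 921 with *Fanci*, and *Twnk* shares 507 with *Mrpl43*. The 3′ kit keeps the strand of a transcript, and the strand setting of the counting was not given in the sources used here.

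The promoters are shown because 6 of the 10 members held the same short ETS motif, the kind of site that GABP reads. The letters CCGGAAG were searched on both strands in RefSeq windows of 300 bases (GRCm38.p6), from 250 bases before to 50 bases after the annotated start. They were found in *Tfam*, *Polrmt*, *Tefm*, *Slirp*, *Polg*, and *Ssbp1*, against 15.6% of 15079 promoters of genes with at least 20 UMIs here and 8.86% of all 32851 promoters. The first base of the match nearest to the start lay at −47 in *Tfam* and *Ssbp1*, −43 in *Polrmt*, −38 in *Polg*, −11 in *Slirp*, and −9 in *Tefm*, counted from the RefSeq start. That start lies inside the gene span given above by 236 bases in *Tfam*, 116 in *Ssbp1*, 89 in *Polg*, and 22 in *Tefm*, so the matches of these 4 genes also lie inside that span. The 30 bases around each match follow, 5′ to 3′ along the gene's strand, with the motif in capitals (CTTCCGG is the same motif read on the other strand).
*Tfam*, chr10:71238073-71238102, minus strand: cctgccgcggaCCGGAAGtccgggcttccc
*Polrmt*, chr10:79746606-79746635, minus strand: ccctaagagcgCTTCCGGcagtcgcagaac
*Tefm*, chr11:80142144-80142173, minus strand: agcacacgaaaCCGGAAGttgaggaggaac
*Slirp*, first of 3, chr12:87443739-87443768, plus strand: aagcggaaaagCTTCCGGaaagcatcctct
*Slirp*, second of 3, chr12:87443837-87443866, plus strand: aacagtttggcCCGGAAGcagaactcgaaa
*Slirp*, last of 3, chr12:87443874-87443903, plus strand: tctggcaggttCTTCCGGggtcacgactcc
*Polg*, chr7:79466293-79466322, minus strand: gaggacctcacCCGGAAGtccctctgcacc
*Ssbp1*, chr6:40471410-40471439, plus strand: ggctccgtgcgCCGGAAGcgagccgctggc

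*Tfb2m* held no ETS motif but was the 1 member with the NRF-1 motif GCGCATGCG, found in 3.22% of promoters of the same genes. Its match began 12 bases after the start, on the other strand, so the capitals are the reverse complement of these letters.
*Tfb2m*, NRF-1 motif in capitals, chr1:179546245-179546274, minus strand: ctaggtcgttCGCATGCGCcattcgtaatg

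The cAMP response element TGACGTCA was in 0 of the 10 windows and in 2.86% of promoters of the same genes. The GC box GGGCGG was in 5 members (*Tfam*, *Tfb2m*, *Lrpprc*, *Polg*, and *Ssbp1*) and in 58.9% of those promoters. *Ppargc1a* held none of the 4 motifs, *Lrpprc* held only the GC box, and of the 2 RefSeq windows of *Twnk* the one at the gene's outermost start held none and the other held 2 ETS motifs and 2 GC boxes. A match is a run of letters, and binding was not measured.

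The 10 factors fell into 2 tiers of abundance that were alike in both libraries. Levels are CPM, the UMIs of a gene per 1000000 UMIs of the cells summed, and since a 3′ UMI marks a transcript end they do not grow with transcript length. The upper tier held the coactivator *Ppargc1a*, the RNA-binding pair, and the single-strand binding protein. *Ppargc1a* stood at 140.0 CPM in WT (95% interval 136.9 to 143.2, 7633 UMIs) and 132.1 CPM in the mutant (129.2 to 134.9, 8314 UMIs). *Slirp* stood at 110.2 and 114.4 CPM, *Ssbp1* at 73.0 and 62.8 CPM, and *Lrpprc* at 53.4 and 64.2 CPM. The lower tier held the initiation factors *Tfb2m* (26.2 and 21.1 CPM) and *Tfam* (24.6 and 21.9 CPM), the polymerase *Polg* (20.5 and 18.2 CPM), the helicase *Twnk* (10.8 and 9.83 CPM), the elongation factor *Tefm* (9.01 and 8.07 CPM), and the RNA polymerase *Polrmt* (8.09 and 9.15 CPM). The RNA polymerase was thus counted from 441 WT and 576 mutant UMIs, and was the lowest of the 10 in WT, where its interval overlapped that of *Tefm* and that of *Twnk* stood apart above both. In the mutant *Tefm* was the lowest, and each of these 3 overlapped the next in order.

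**Figure D1:**
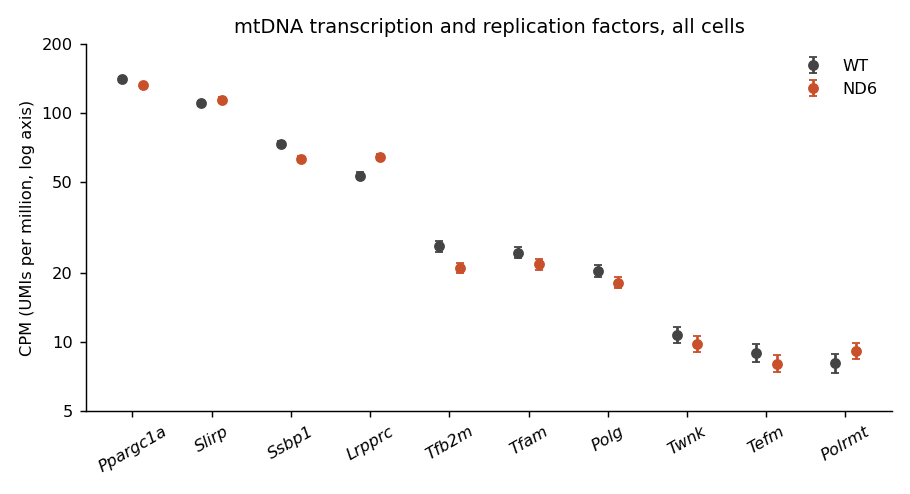
CPM (log axis) of each of the 10 factors over all kept cells, WT in grey and mutant (ND6) in red, 1 library each; bars are exact 95% Poisson intervals. *Ppargc1a* and *Slirp* stand above 100 CPM and *Polrmt*, *Tefm*, and *Twnk* near 10 CPM in both libraries.

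Between genotypes, none of the 10 factors differed by as much as 0.5 on the log2 scale over all cells, the fold used here to call a gene. Over all 15888 genes with at least 20 UMIs, 21.6% were at or above 0.5 and 8.78% at or below −0.5. Among the 13074 genes with at least 100 UMIs these shares were 17.1% and 6.65%. *Lrpprc* had the highest log2 ratio of mutant over WT, 0.27 (0.20 to 0.34), and *Tfb2m* the lowest, −0.31 (−0.42 to −0.20). Of the 10, 7 were lower and 3 (*Lrpprc*, *Polrmt*, and *Slirp*) higher, with a median of −0.14 where the median of all genes was 0.07. These sums also move with the mix of cell types, and the median of the members was 0.034 without the limit on mtDNA-encoded UMIs and 0.098 when each cell weighed the same, again below that of all genes (0.17 and 0.22).

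The DNA-copying factors were all on the low side. *Ssbp1* was at −0.22 (−0.28 to −0.15), *Polg* at −0.17 (−0.29 to −0.05), and *Twnk* at −0.13 (−0.30 to 0.03). The direction of *Polg* and *Twnk* turned under other settings, to 0.013 and 0.070 without the limit on mtDNA-encoded UMIs and to 0.27 and 0.11 with cells weighted equally. Of the transcription factors, *Tfam* was at −0.17 (−0.28 to −0.06) and *Tefm* at −0.16 (−0.34 to 0.02), while *Polrmt* was at 0.18 (−0.0034 to 0.36). With cells weighted equally *Tfam* and *Tefm* turned to 0.057 and 0.20. *Slirp* was at 0.05 (0.01 to 0.10) and *Ppargc1a* at −0.08 (−0.13 to −0.04). The counting interval lay below 0 for 5 members (*Tfam*, *Tfb2m*, *Polg*, *Ssbp1*, and *Ppargc1a*) and above 0 for 2 (*Lrpprc* and *Slirp*), where 28% and 37.9% of all genes did so.

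LRPPRC and SLIRP act as a complex, and their transcripts did not keep 1 ratio. *Slirp* had 2.06 UMIs per *Lrpprc* UMI in WT (1.97 to 2.16) and 1.78 in the mutant (1.71 to 1.85). In rod-like cells the ratio was 2.15 (2.03 to 2.28) in WT and 1.91 (1.81 to 2.01) in the mutant, and in cone-like cells it was 1.48 (1.34 to 1.62) and 1.45 (1.34 to 1.57). The highest ratio among the named classes was that of WT RPE-like cells, 3.87 (2.93 to 5.19), with 3.23 (2.46 to 4.28) in the mutant. All these ratios are over cells of any depth. In cells of 5000 to under 20000 UMIs the order of rods and cones turned. Rod-like cells then had 1186 *Slirp* and 627 *Lrpprc* UMIs in WT and 1112 and 828 in the mutant. Cone-like cells had 313 and 139 in WT and 567 and 238 in the mutant, and no interval was computed for these.

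Rod-like cells, which made up most cells of both libraries, showed the pattern of all cells more strongly for *Tfb2m* and *Polg*. *Tfb2m* was counted at 26.4 CPM in WT and 20.1 CPM in mutant rod-like cells (log2 ratio −0.40, −0.54 to −0.25), and *Polg* at 19.0 and 14.8 CPM (−0.35, −0.53 to −0.18), which became 0.026 with rods weighted equally. *Ssbp1* stood at 73.0 and 64.4 CPM (−0.18, −0.27 to −0.10) and *Ppargc1a* at 139.1 and 123.9 CPM (−0.17, −0.23 to −0.11). *Lrpprc* went the other way, from 51.8 to 62.7 CPM (0.27, 0.18 to 0.37), with *Slirp* at 111.5 and 119.5 CPM (0.10, 0.04 to 0.16).

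None of the 10 reached 0.5 in either direction in rod-like cells, where 19.8% and 7.98% of 13403 genes did. The intervals of *Lrpprc* and *Slirp* were above 0 (32.6% of all genes), and those of *Tfb2m*, *Polg*, *Ssbp1*, and *Ppargc1a* below 0 (29.9%). mtDNA-encoded UMIs, which the limit on barcodes acts on, made up 8.71% of WT and 7.32% of mutant rod-like UMIs.

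In cone-like cells *Lrpprc* and *Slirp* were at 0.03 (−0.11 to 0.17) and 0.01 (−0.11 to 0.12). *Ssbp1* was counted at 73.1 CPM in WT and 57.5 CPM in mutant cones (−0.34, −0.49 to −0.20), *Tfam* at 26.1 and 21.3 CPM (−0.29, −0.53 to −0.05), and *Tfb2m* at 28.7 and 24.0 CPM (−0.26, −0.48 to −0.03). Again 0 of 10 passed 0.5 in either direction, with 12.6% of 12281 genes above and 8.01% below. The intervals of those 3 were below 0 (24.9% of genes) and that of none was above (21.1% of genes). Cells over 20000 UMIs supplied 69.9% of WT cone UMIs, and without them *Tefm* passed the limit, from 43 to 41 UMIs, at −0.90 (−1.56 to −0.25), where 8.50% of genes were at or below −0.5. Whether the difference in *Lrpprc* between genotypes was itself different in rods and cones could not be tested with 1 library each.

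*Lrpprc* was the 1 member higher in the mutant library in all 9 cell sets in which it had at least 20 UMIs. Bipolar-like cells had it at 51.6 CPM in WT (88 UMIs) and 68.9 CPM in the mutant (280 UMIs), with a log2 ratio of 0.42 (0.07 to 0.78). In amacrine-like cells it stood at 40.1 (32 UMIs) and 66.0 CPM (145 UMIs), 0.72 (0.16 to 1.32), and the unnamed cluster at 41.2 and 67.1 CPM, 0.71 (0.41 to 1.01). Its interval included 0 in cone-, RPE-, Müller-, and microglia- or macrophage-like cells and in red blood cells. The amacrine-like and unnamed clusters are mixed. Their summed ganglion cell markers stood at 1952 CPM in WT and 1083 in mutant amacrine-like cells, and at 212 and 460 CPM in the unnamed cluster. The part of this make-up in the *Lrpprc* ratios was not tested. *Tfam* was lower in the mutant library in 8 of 9 such sets, *Tfb2m* in 7 of 8, and *Twnk* in 5 of 6. Of all genes, from 46.5% (Müller-like) to 65.1% (unnamed cluster) were above 0 in these sets, red blood cells not counted. Barcodes of 10 to 100 UMIs hold free RNA. There *Lrpprc* was at 39.8 CPM in WT (9 UMIs) and 77.1 CPM in the mutant (30 UMIs), at 0.95 (−0.16 to 2.21). The part of free RNA in the ratios of the cell sets was not tested.

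In the smaller classes members passed 0.5 from few UMIs. In bipolar-like cells 0 of 10 did (17.6% of genes at or above 0.5 and 6.73% at or below −0.5), although *Slirp* was at 0.30 (0.04 to 0.57). In amacrine-like cells *Lrpprc* and *Tefm* were above (22.1% of genes) and 0 below (13.9%), *Tefm* with 5 and 20 UMIs. In Müller-like cells *Tfb2m* was above (16.2%) and *Tfam* below (21.6%) among the 7 members compared, both with intervals that included 0. In microglia- or macrophage-like cells 3 of 6 were above (*Tfam*, *Slirp*, and *Polg*; 20% of genes) and 0 below (19.6%), all 3 with intervals that included 0. In RPE-like cells *Polg* was above, from 20 to 30 UMIs (0.64, −0.22 to 1.54; 13.9% of genes above and 13% below). In the unnamed cluster *Lrpprc* was above (26.4%) and 0 of 10 below (5.08%).

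Several of these ratios changed when cells over 20000 UMIs were left out, a choice made after the values were seen. *Ppargc1a* passed 0.5 in bipolar-like cells at 0.94 (0.36 to 1.56), in RPE-like cells at 0.74 (0.31 to 1.17), and in Müller-like cells at 1.70 (0.40 to 3.27, 6 and 27 UMIs), where it had been at −0.48 with them. At or above 0.5 were then 23.0% of genes in bipolar-like, 27.1% in RPE-like, and 31.0% in Müller-like cells. *Tfam* in Müller-like cells became −2.05 (−3.87 to −0.52), from 15 and 5 UMIs, where 25.5% of genes were at or below −0.5. In cells of 5000 to under 20000 UMIs, bipolar-like cells had *Ppargc1a* at 0.86 (0.24 to 1.52) and *Lrpprc* at 0.70 (0.11 to 1.32), with 23.3% of genes at or above 0.5. The rod markers of these classes, given below, were also higher in the mutant library, and their part in these ratios was not tested.

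**Figure D2:**
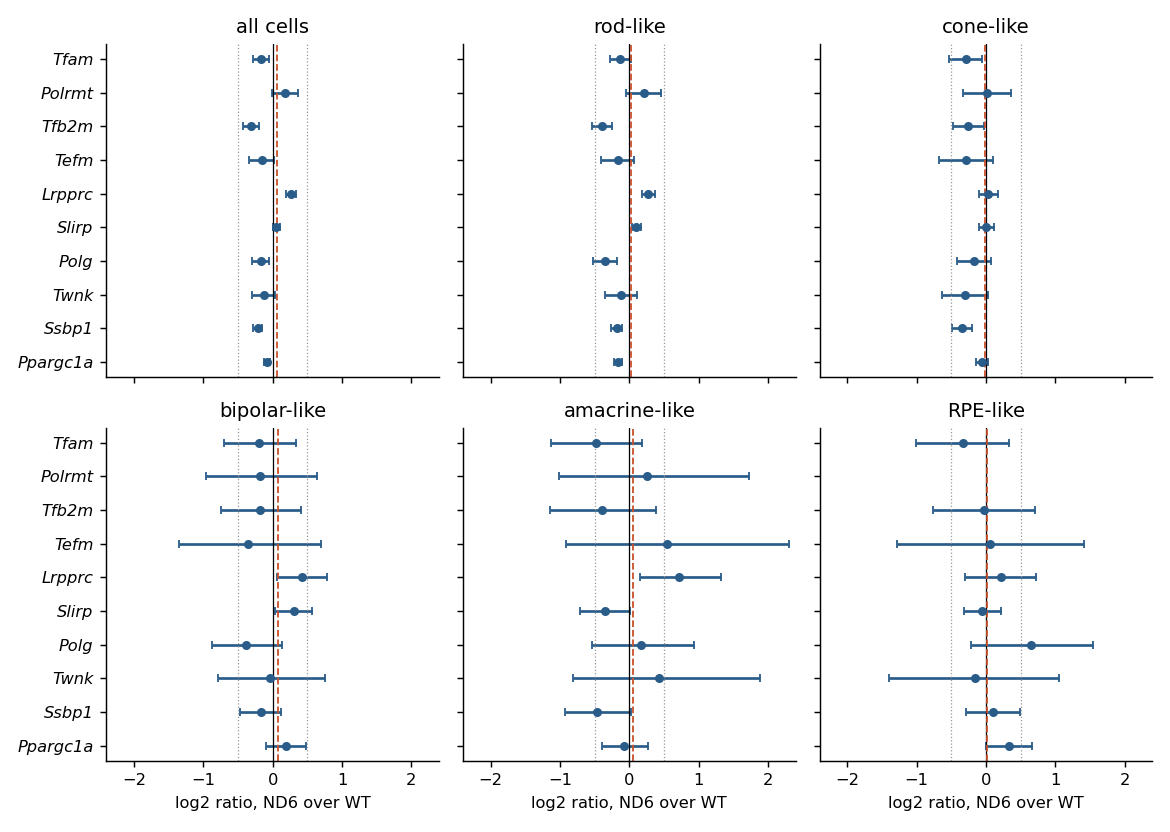
Log2 ratio of mutant (ND6) over WT CPM for the 10 factors in all cells and 5 named classes, with exact conditional 95% intervals for counting error; members under 20 UMIs are left out. The solid line is 0, the dotted lines ±0.5, and the red dashed line the median of all genes compared; *Lrpprc* lies to the right of 0 in all 6 panels.

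The clearest differences among cell types, against the counting intervals, were those of *Ppargc1a* and *Polg*. Summed over all cells of a class, *Ppargc1a* was highest in cone-like cells (181.2 CPM in WT, 173.7 in the mutant), followed in WT by Müller-like (148.9), rod-like (139.1), and amacrine-like cells (132.9), and lowest in bipolar-like (80.9), RPE-like (78.9), and microglia- or macrophage-like cells (44.5). The WT intervals of cone-like and Müller-like cells overlapped, and so did those of rod-like with Müller-like and amacrine-like cells. In the mutant the order was cone-, amacrine-, rod-, Müller-, RPE-, bipolar-, and microglia- or macrophage-like, with cone-like cells alone set apart from the class below them.

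Cells with over 20000 UMIs weighed heavily on these sums. In WT cone-like cells 159 of them supplied 69.9% of the UMIs, in WT Müller-like cells 11 supplied 72.6%, and in WT bipolar-like cells 10 supplied 31.8%. The 10 rod markers together stood at 63901 CPM in those WT bipolar-like cells and at 18041 CPM in the others, and at 58507 and 9001 CPM in Müller-like cells. Without the cells over 20000 UMIs, *Ppargc1a* fell to 25.8 CPM in WT and 49.4 CPM in mutant bipolar-like cells, and to 29.4 CPM in WT Müller-like cells.

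*Ppargc1a* was therefore also compared at matched depth, in cells of 5000 to under 20000 UMIs, a choice made after the values were seen. Rod-like cells had 157.8 CPM in WT (150.6 to 165.3) and 151.0 in the mutant (143.8 to 158.5), cone-like cells 146.0 (132.2 to 160.9) and 165.7 (154.3 to 177.6), and amacrine-like cells 145.6 (114.1 to 183.0) and 130.5 (111.7 to 151.4). The 3 intervals overlapped in WT, and in the mutant that of amacrine-like cells lay below that of cone-like cells. The log2 ratio of cone-like over rod-like cells, 0.38 in WT and 0.49 in the mutant over cells of any depth, became −0.11 (−0.27 to 0.04) and 0.13 (0.01 to 0.26).

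Bipolar-like cells had 35.6 CPM in WT (23.5 to 51.8, 27 UMIs in 104 cells) and 64.6 in the mutant (53.2 to 77.6, 113 UMIs in 200 cells), which is −2.15 (−2.75 to −1.60) and −1.23 (−1.51 to −0.95) against rod-like cells on the log2 scale. WT Müller-like (27.0 CPM), RPE-like (45.5 CPM), and microglia- or macrophage-like cells (24.9 CPM) were as low. In the mutant library these 3 stood at 77.1, 119.9, and 97.0 CPM. The values rest on 5 and 13 UMIs in Müller-like, 43 and 50 in RPE-like, and 11 and 13 in microglia- or macrophage-like cells. The summed rod markers moved with them: 7377 CPM in WT and 43155 in mutant Müller-like cells, 11026 and 56219 in RPE-like cells, 20026 and 34538 in microglia- or macrophage-like cells, and 21041 and 31701 in bipolar-like cells of that depth. The part of rod RNA in the *Ppargc1a* values of these classes was not tested.

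*Polg* was highest in Müller-like cells in both libraries, and set apart from the next class by its interval in WT alone. It was counted there at 57.7 CPM in WT (41.7 to 77.7, 43 UMIs) and 75.1 CPM in the mutant (49.1 to 110.0, 26 UMIs), against 19.0 and 14.8 CPM in rod-like cells, a log2 ratio of 1.60 (1.12 to 2.05) and 2.34 (1.71 to 2.91). At matched depth the difference was as large, 2.0 (1.17 to 2.73) and 1.88 (0.79 to 2.79), from 16 and 10 UMIs. Next in the mutant were microglia- or macrophage-like cells, at 35.7 CPM (17.8 to 63.9, 11 UMIs) over all depths. At matched depth mutant Müller-like cells had 59.3 CPM and mutant microglia- or macrophage-like cells 52.3 CPM (7 UMIs). Bipolar-like cells also had more *Polg* than rod-like cells over all depths, 31.6 and 24.4 CPM (0.74, 0.31 to 1.14, and 0.71, 0.39 to 1.03), but at matched depth the intervals included 0.

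Over all depths *Slirp* and *Ssbp1* spanned the least among the 7 classes, by a small margin. From the highest to the lowest class *Slirp* spanned 1.62-fold in WT and 1.35-fold in the mutant, with RPE-like cells highest in both (134.6 and 129.8 CPM). *Ssbp1* spanned 1.34-fold and 1.78-fold, *Tfam* 1.63-fold in WT, and *Lrpprc* 1.81-fold in the mutant. *Ppargc1a* spanned 4.07-fold and 2.82-fold, and *Polg* 5.23-fold and 5.06-fold. Spans of the scarcer members rest on few UMIs in the small classes. At matched depth WT *Slirp* ran from 79.2 CPM in microglia- or macrophage-like to 159.7 CPM in RPE-like cells. Over all depths *Lrpprc* was highest in cone-like (69.0 and 70.5 CPM) and lowest in microglia- or macrophage-like cells (32.5 and 38.9 CPM), and RPE-like cells had less of it than rod-like cells in both libraries, at −0.58 (−0.96 to −0.21) and −0.64 (−1.0 to −0.30). At matched depth the order of cones and rods turned for *Lrpprc*: cone-like cells had 49.5 and 49.8 CPM and rod-like cells 55.4 and 76.0 CPM, a log2 ratio of −0.16 (−0.44 to 0.10) in WT and −0.61 (−0.82 to −0.40) in the mutant. For *Tfam*, *Polrmt*, *Tfb2m*, *Tefm*, *Lrpprc*, *Slirp*, and *Twnk* no class was set apart by its interval from the next in order in either library. That rule compares neighbours only. Over all depths *Polrmt* in cone-like over rod-like cells was at 0.64 (0.31 to 0.96) in WT and 0.44 (0.16 to 0.72) in the mutant. *Slirp* was at −0.13 (−0.23 to −0.03) and −0.22 (−0.31 to −0.14). At matched depth both *Polrmt* intervals included 0, and *Slirp* was at 0.09 (−0.10 to 0.27) and 0.22 (0.07 to 0.37).

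**Figure D3:**
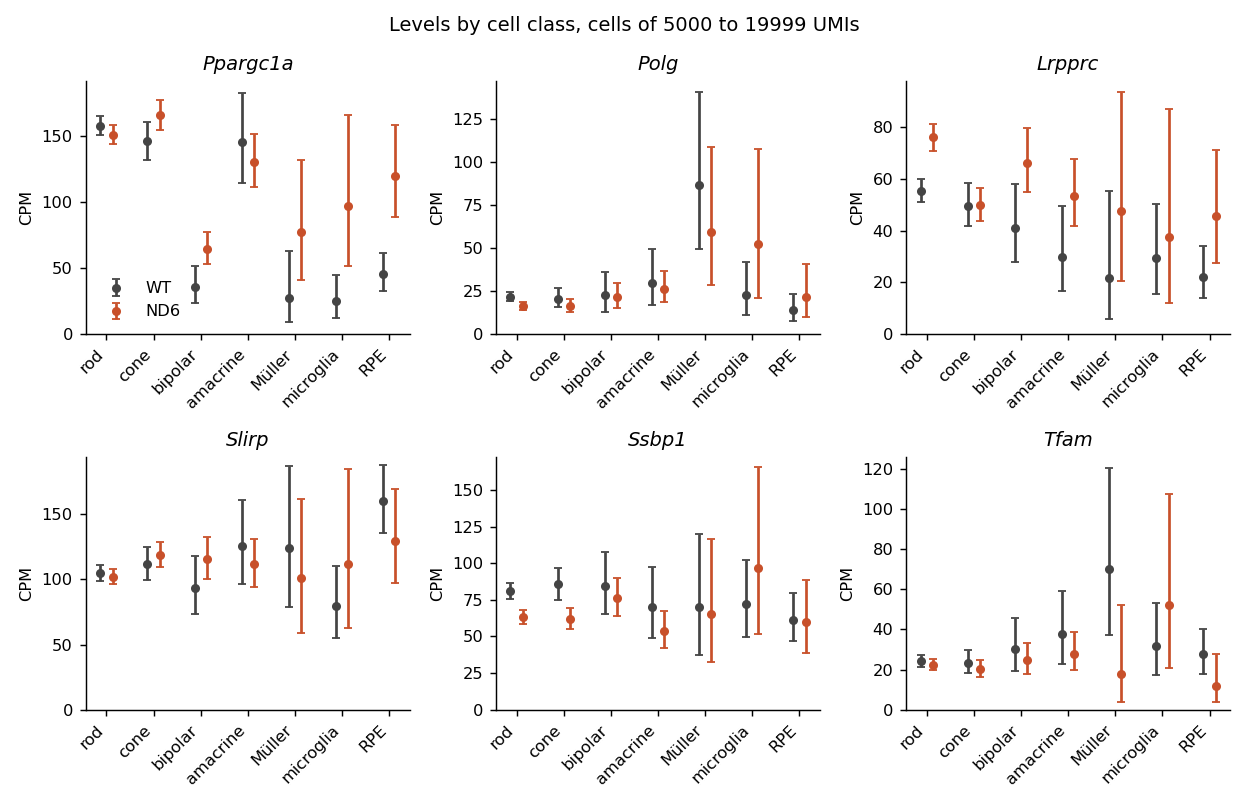
CPM of 6 of the factors in the 7 named classes at matched depth (cells of 5000 to under 20000 UMIs), WT in grey and mutant (ND6) in red, with exact 95% Poisson intervals. In WT *Ppargc1a* is above 140 CPM in rod-, cone-, and amacrine-like cells and below 50 CPM in the other 4 classes, and *Polg* is highest in Müller-like cells in both libraries.

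Across the 8 named classes, red blood cells included, of each library (16 points that share libraries, depth differences, and rod RNA), the genes whose log2(CPM + 1) followed a member most closely were searched among 10217 genes with at least 500 UMIs. For *Ppargc1a* they were *Faah* (Pearson r = 0.91), *Rnf19a* (0.89), and *Shroom2* (0.89), and for *Lrpprc* they were *Dlg4* (0.95), *Lhfpl4* (0.95), and *Amer2* (0.94). For *Slirp* they were *Mrps33* (0.85), *Rex1bd* (0.83), and *Ndufa7* (0.82), and for *Ssbp1* they were *Psmd6* (0.85), *2900060B14Rik* (0.78), and *Usf1* (0.77). For *Tfam* they were *Pip4p1* (0.90), *Znfx1* (0.87), and *Zfp658* (0.86), for *Tfb2m* they were *Zfp128* (0.89), *Prkdc* (0.89), and *Tmem70* (0.89), and for *Polrmt* they were *Rnf170* (0.94), *Tnks* (0.91), and *Tlk2* (0.91). For *Tefm* they were *Gm37305* (0.92), *Dcun1d2* (0.91), and *Cnot9* (0.91), for *Polg* they were *E130114P18Rik* (0.89), *D2hgdh* (0.89), and *Hdac8* (0.89), and for *Twnk* they were *Hspa9* (0.93), *Fgfr1op* (0.91), and *Gm48604* (0.91). Among the members themselves r was highest for *Polrmt* with *Lrpprc* (0.79) and lowest for *Slirp* with *Polg* (−0.47), and for the partners *Lrpprc* and *Slirp* it was −0.33. Some points of the scarcest members rest on 1 UMI. These include *Twnk* in mutant Müller-like and microglia- or macrophage-like cells, *Tefm* in mutant Müller-like cells, and *Tefm* and *Polrmt* in WT red blood cells. How counting error bears on r was not tested.

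Within rod-like cells the level of most factors followed the number of UMIs per cell, as that of the median gene did, and *Slirp* ran the other way. WT rods under 1000 UMIs had *Ppargc1a* at 62.9 CPM, those from 1000 to under 2000 UMIs at 71.1, those up to 5000 at 123.8, those up to 20000 at 157.8, and those of 20000 or more at 191.4 CPM. In mutant rods the same 5 levels were 83.6, 73.0, 112.7, 151.0, and 186.3 CPM. *Slirp* went from 137.3 to 90.4 CPM in WT and from 129.9 to 89.96 CPM in the mutant between the same end groups. The low and high groups did not overlap in their intervals for either gene.

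Split at 2000 UMIs, *Ppargc1a* was higher in the deeper WT rods by 1.16 (1.02 to 1.30) on the log2 scale, *Twnk* by 1.54 (0.98 to 2.17), *Polg* by 1.18 (0.80 to 1.57), *Tefm* by 1.11 (0.58 to 1.69), and *Tfb2m* by 1.06 (0.75 to 1.38), where the median gene was at 0.63. In mutant rods the same differences were 0.95, 0.58, 0.50, 0.09, and 0.38, where the median gene was at 0.31. *Lrpprc* was at 0.64 in WT and 0.60 in mutant rods, *Polrmt* at 0.61 and 0.65, *Tfam* at 0.38 and 0.02, and *Ssbp1* at 0.28 and −0.03. In mutant rods the intervals of *Tefm*, *Tfam*, and *Ssbp1* included 0. *Slirp* was at −0.35 (−0.46 to −0.24) and −0.40 (−0.49 to −0.30). *Malat1*, a noncoding RNA kept in the nucleus, was at 1.86 in WT and 1.09 in mutant rods, and the mtDNA-encoded share was 12.9% in WT rods of 1000 to under 2000 UMIs and 4.63% in those of 20000 or more. How nuclear RNA bears on the members' levels was not tested.

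The difference between genotypes changed with this depth for most members and held its direction for *Lrpprc*. *Lrpprc* was higher in mutant rods in each of the 5 groups, by 0.40, 0.35, 0.32, 0.46, and 0.25 from the shallowest to the deepest, and the interval lay above 0 in the 4 groups from 1000 UMIs up. *Polrmt* also had values above 0 in all 5 groups, from 0.20 to 0.49, each with an interval that included 0. *Tfb2m* was at −0.47 (−0.71 to −0.22) and −0.49 (−0.81 to −0.19) in the 2 deepest groups and at 0.30 (−0.10 to 0.71) in rods of 1000 to under 2000 UMIs. *Ssbp1* was at −0.36 (−0.50 to −0.22) and −0.26 (−0.47 to −0.05) in the 2 deepest groups and 0.08 (−0.11 to 0.27) in rods of 1000 to under 2000 UMIs, and *Polg* went from 0.12 (−0.38 to 0.62) in that group to −0.42 (−0.70 to −0.13) and −0.48 (−0.83 to −0.13) in the deepest 2. *Tefm* was at 0.84 (0.19 to 1.53) and *Twnk* at 0.72 (0.0081 to 1.48) in rods of 1000 to under 2000 UMIs. In rods of 5000 to under 20000 UMIs *Tefm* was at −0.41 (−0.83 to −0.0018) and *Twnk* at −0.07 (−0.43 to 0.28). The nuclear RNA *Malat1* was at 0.73, 0.43, −0.11, −0.32, and −0.40 in the 5 groups, and its bearing on the members' ratios was not tested. The values of all rods weigh the deep cells most: rods of at least 20000 UMIs, 220 in WT and 168 in the mutant, supplied 21.7% and 14.3% of rod UMIs.

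**Figure D4:**
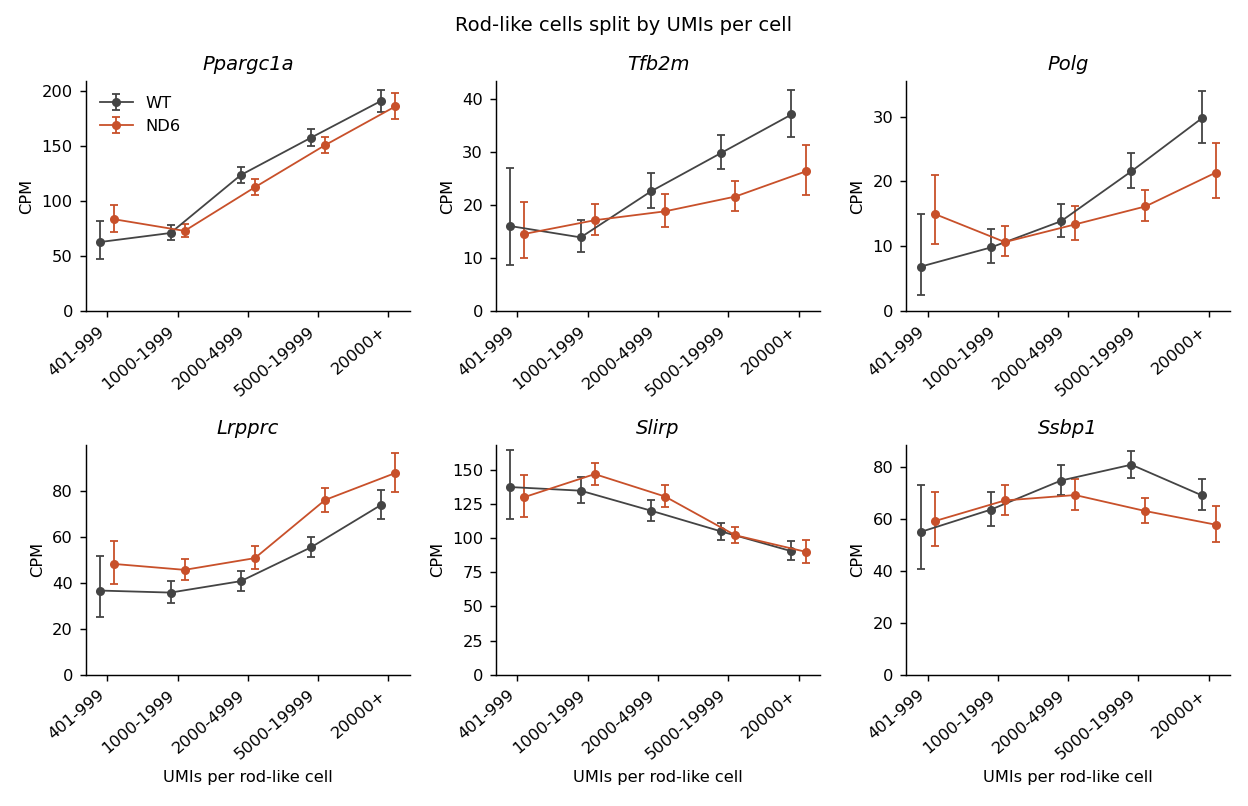
CPM of 6 factors in rod-like cells split into 5 groups by UMIs per cell (horizontal axis), WT in grey and mutant (ND6) in red, with exact 95% Poisson intervals. From 1000 UMIs per cell up, *Ppargc1a*, *Tfb2m*, *Polg*, and *Lrpprc* climb and *Slirp* declines in both libraries, and *Lrpprc* is higher in the mutant library in each group.

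The limit on mtDNA-encoded UMIs acts on the very transcripts that several of these factors make or stabilise, so the barcodes it removed were counted too. It removed 10647 WT and 3861 mutant barcodes, and mtDNA-encoded UMIs were 8.19% of WT and 7.02% of mutant UMIs in the cells kept. Scaled to nDNA-encoded UMIs, *Ppargc1a* in WT stood at 182.6 CPM in barcodes with up to 5% mtDNA-encoded UMIs, 161.7 between 5% and 10%, 107.0 between 10% and 20%, 70.6 between 20% and 40%, and 63.7 above 40%. In the mutant the same levels were 160.5, 144.0, 101.3, 91.0, and 55.3 CPM. *Slirp* ran from 101.7 to 147.1 CPM in WT and from 105.3 to 148.6 in the mutant. *Malat1* ran with *Ppargc1a*, from 41449 to 5818 CPM in WT and from 37371 to 7433 in the mutant.

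The removed barcodes of WT held less of 9 members per nDNA-encoded UMI than the kept cells, with log2 ratios of −1.75 for *Twnk*, −1.42 for *Polg*, −1.14 for *Ppargc1a*, and −0.82 for *Tfb2m*, where the median gene was at −0.50. *Slirp* was the exception, 0.31 (0.22 to 0.40) higher. In the mutant *Twnk* was at −0.10 (−0.67 to 0.42), *Polg* at −0.03 (−0.43 to 0.34), *Ppargc1a* at −0.76 (−0.94 to −0.58), *Tfb2m* at −0.73 (−1.20 to −0.29), and *Slirp* at 0.11 (−0.04 to 0.25), where the median gene was at −0.21. In barcodes of 10 to 100 UMIs, which hold free RNA, *Ppargc1a* stood at 106.1 CPM in WT (24 UMIs) and 110.5 CPM in the mutant (43 UMIs), and *Slirp* at 70.8 (16 UMIs) and 113.0 CPM (44 UMIs), so free RNA carried these transcripts too.

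Beyond the 10 members, 65 other genes of mtDNA maintenance and expression were listed, of which 64 were compared. Over all cells 21 of them had a log2 ratio above 0 and 43 below 0, and their median was −0.12 where that of all genes was 0.07. One gene was at or above 0.5 and 6 at or below −0.5, beside 21.6% and 8.78% of all genes. Medians were −0.12 for transcription (8 genes, 6 lower), −0.12 for replication and repair (9 genes, 6 lower), −0.15 for the nucleoid (4 genes, 4 lower), 0.02 for nucleotide supply (10 genes, 5 lower), −0.15 for RNA processing and stability (20 genes, 14 lower), and −0.03 for nuclear regulators (13 genes, 8 lower).

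The lowest were *Tfb1m*, the methyltransferase of the small ribosomal RNA (6.07 CPM in WT and 3.35 in the mutant, −0.86, −1.11 to −0.60), *Mpv17*, a channel-like inner membrane protein whose loss depletes mtDNA (45.9 and 29.1 CPM, −0.66), and *Pnpt1*, the mitochondrial polynucleotide phosphorylase (19.1 and 12.4 CPM, −0.63). They were followed by *Trmt10c*, a subunit of mitochondrial RNase P (−0.61), *Mterf3*, a repressor of mtDNA transcription (−0.60), and *Mgme1*, a mitochondrial exonuclease (−0.52). *Tfb1m* and *Mpv17* were also lower in rod-like cells (−1.0 and −0.77) and cone-like cells (−0.74 and −0.74).

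The highest was *Esrrb*, an orphan nuclear receptor expressed in rods, at 119.4 CPM in WT and 174.2 in the mutant (0.54, 0.50 to 0.59). It was at 0.52 (0.46 to 0.57) in rod-like and 0.61 (0.52 to 0.70) in cone-like cells. It was followed by *Fastk*, whose mitochondrial form is needed for the ND6 transcript (53.1 and 71.3 CPM, 0.43, 0.36 to 0.49), *Top1mt*, the mitochondrial type I topoisomerase (0.38), *Rrm2b*, a ribonucleotide reductase subunit (0.32), *Dna2*, a nuclease and helicase (0.30), and *Esrra*, the estrogen-related receptor that PGC-1α coactivates (0.29). Of the most abundant gene of each list, *Esrrb* was thus also the highest in log2 ratio, while *Slc25a4*, the ADP/ATP carrier, was at 0.20, *Polg2*, the accessory subunit of polymerase gamma, at −0.08, *Rexo2* at −0.11, *Mrpl12* at −0.03, and *Clpx* at −0.02. *Polg2* was counted at 131.2 CPM in WT and 123.7 CPM in the mutant, beside 20.5 and 18.2 CPM for its catalytic partner *Polg*.

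**Figure D5:**
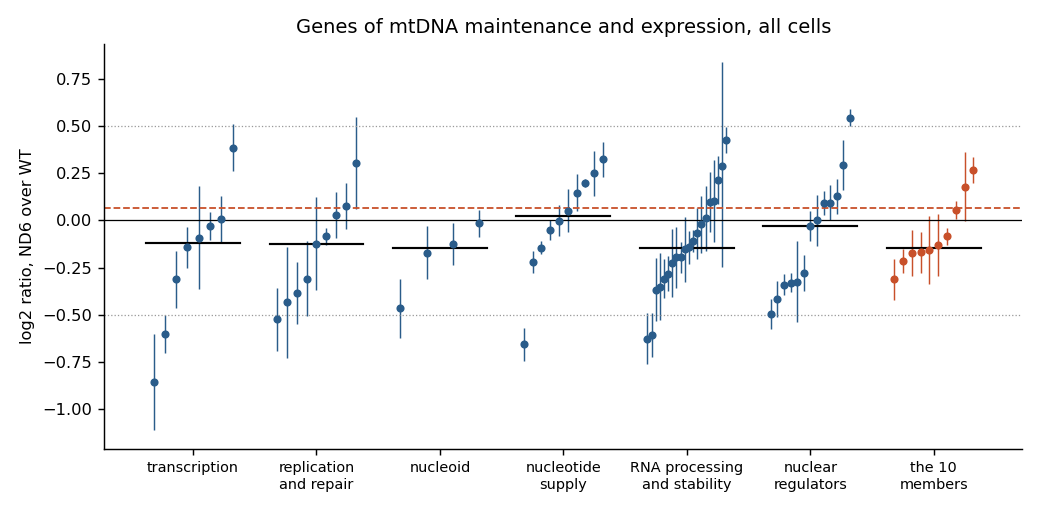
Log2 ratio of mutant (ND6) over WT CPM over all cells for the listed genes of mtDNA maintenance and expression (blue, 1 point per gene with its exact 95% counting interval) and the 10 members (red). Short black lines are medians of the groups, the dashed red line the median of all genes compared (0.07), and dotted lines ±0.5; *Tfb1m* is the lowest gene and *Esrrb* the highest.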

How the data were processed

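The authors sequenced Chromium 3′ libraries of whole retina and used Cell Ranger 3.0.2 with the mm10 genome (labels and the study's methods). They deposited, for 1 WT and 1 ND6 library, a matrix of UMI counts by gene and barcode, not filtered for cells and not normalized. The gene annotation release was not given in the sources used here, and GENCODE vM21 (GRCm38, the same assembly as mm10) supplied positions. Barcodes of 10 to 100 UMIs stood for free RNA.

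A barcode was kept as a cell with over 400 UMIs, over 200 genes, and no more than 20% of its UMIs from the 13 mtDNA-encoded genes. Clusters (scanpy 1.11.5, leidenalg 0.10.2, 3000 variable genes scaled within each library, 30 components, 20 neighbours, resolution 1) were built without the members, the listed genes, and mtDNA-encoded genes. A cluster was named when it had at least 20 cells, at least 3 markers raised at least 2-fold with at least 10 UMIs, and more of its own markers than of any other class among its leading 10 genes by fold (genes seen in at least 10% of its cells); clusters without 3 raised markers, rods being the bulk of the reference, were scored again against the named clusters without cones, where 3 raised rod markers made them rod-like. This rule was settled after clusters had been seen. Scrublet marked 0 cells in either library, so it did not work and doublets were kept.

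UMIs were summed per library and class. Sums carry exact Poisson, ratios exact conditional, and shares exact Clopper-Pearson 95% intervals (scipy 1.17.1), for counting error only. A gene was compared with at least 20 UMIs over both libraries and called past 0.5 on the log2 scale. The method was tested on Poisson counts simulated from the pooled profile, the model the intervals assume. That test could not show spread between mice or cells. The members and lists were chosen with earlier results of these data known. Named genes are the members, the 6 highest and 6 lowest listed genes with at least 100 UMIs, the most abundant of each list, and the 3 genes most like each member. *Malat1* and the list genes given by class were singled out after values were seen. RefSeq promoters (GRCm38.p6) matched all 10 members.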

Additional observations from a re-analysis of the deposited data

Results flagged for a closer look

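In the barcodes above the limit of 20% mtDNA-encoded UMIs, which the comparisons of genotypes leave out, 3 members stood higher in the mutant library than in WT, the control, with an interval above 0, when scaled to nDNA-encoded UMIs. *Twnk* was at 3.48 CPM in WT (30 UMIs) and 9.87 CPM in the mutant (31 UMIs), a log2 ratio of 1.5 (0.73 to 2.28). *Polg* was at 8.35 CPM (72 UMIs) and 19.1 CPM (60 UMIs), a log2 ratio of 1.19 (0.68 to 1.71), and *Ppargc1a* at 69.4 and 83.8 CPM, 0.27 (0.06 to 0.48). The median of 11910 genes in these barcodes was 0.34, above the value of *Ppargc1a*, and 42.4% of them were at or above 0.5. The share of genes with an interval above 0 was not counted there. The nuclear RNA *Malat1* stood at 7506 CPM in WT and 13449 CPM in the mutant in these barcodes. Median UMIs were 1251 in WT and 762 in the mutant between 20% and 40% mtDNA-encoded UMIs, and 716 and 875 above 40%. The bearing of these differences on the members' ratios was not tested. *Ssbp1*, the third factor of the replication machinery, was at −0.54 (−0.82 to −0.27) in these barcodes, and *Slirp* at −0.17 (−0.33 to −0.0049). The difference has no replicate check, and with 1 library per genotype no sample could be set against others of its group.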

How the results depend on the processing

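Over all cells the median log2 ratio of the members, −0.14, became 0.034 without the mtDNA limit, 0.098 with cells weighted equally, and 0.099 with each cell thinned to the least depth kept, but lay below the median of all genes in all 10 settings. That of the listed genes (−0.12) became 0.0072 with equal weights and 0.00055 after thinning. *Polg* became 0.013 without the limit, 0.27 with equal weights, and 0.39 after thinning, *Tfam* 0.057 and 0.11 in the last 2, *Ppargc1a* 0.054 without the limit, and *Slirp* −0.012 in barcodes called by rank. After thinning, 1 member (*Twnk*, 0.79) passed 0.5. In rod-like cells, equal weights gave a member median of 0.090 (from −0.15) and *Polg* at 0.026. *Lrpprc* and *Polrmt* stayed above 0, and *Tfb2m* and *Ssbp1* below 0, in all 9 alternatives over all cells. *Ppargc1a* in cone-like over rod-like cells was 0.19 in WT without cells over 20000 UMIs (chosen after seeing the data), and 0.50 in WT and 0.77 in the mutant with equal weights. mtDNA-encoded UMIs were 12.9% (WT) and 8.80% (mutant) without the limit, and 33.0% and 32.9% in barcodes above it. The cause of these shifts was not tested. Of the values of single genes, in all cells or by class, 479 stayed within the counting interval, 56 moved further, and the 8 given above reversed, a word kept for values whose own interval excluded 0. Over all cells 5 more values of *Twnk* and *Tefm*, whose intervals held 0, also changed sign. No paired analysis was possible because each genotype holds 1 library, and no replicate could be left out. Over cells of any depth, members with 20 to 50 UMIs in a class had intervals that included 0. Under other depth limits some excluded 0, such as those of *Tfam* and *Ppargc1a* in Müller-like cells without cells over 20000 UMIs.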
